A study of Mus musculus with 6 samples.

Results

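The genes described here are the 10 mouse collagen hydroxylases and collagen chaperones P4ha1, P4ha2, P4ha3, Plod1, Plod2, Plod3, P3h1, Crtap, Serpinh1 and Fkbp10. They were chosen by gene name for what their proteins do, with earlier results of these data known. All 10 were on the array, with 18 of its 56605 probes, and 16 of those 18 probes passed the filter on dim signals. RNA was measured on 1-colour Agilent arrays in bone marrow stromal cells (BMSCs) of 3 wild-type (WT) samples and 3 samples from mice labelled as knockouts (KO) of the long non-coding RNA NONMMUT002667. The cells came from crushed, collagenase-digested femurs of mice given as male, were sorted as Sca-1+ CD29+ CD45- CD11b- and were grown in culture through the first passage before RNA was taken. Age, strain, the construction of the knockout allele and the number of animals behind each sample are not given in the sources used here, so p-values measure only the spread between these 6 samples.

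Collagen chains are modified and folded in the endoplasmic reticulum (ER) before export. Prolyl 4-hydroxylases make the 4-hydroxyproline that keeps the triple helix stable at body temperature, lysyl hydroxylases make the hydroxylysine needed for stable cross-links and for sugar attachment, and the complex of P3h1, Crtap and cyclophilin B hydroxylates single prolines at the 3 position. Serpinh1 (HSP47) binds the folded helix and Fkbp10 (FKBP65) is a prolyl isomerase that assists folding, and loss of Serpinh1, Fkbp10, Crtap or P3h1 causes brittle bone disease. In bone, the main client of these proteins is type I collagen, which osteoblasts secrete in quantity.

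Signs of array quality moved with the groups. The share of non-control spots well above background was 54.3% to 56.7% on the WT arrays and 49.0% to 53.0% on the KO arrays. Outlier spots numbered 49 to 72 per WT array and 83 to 131 per KO array, and the lowest signal well above background was -4.62 to -4.41 in WT and -4.15 to -3.60 in KO (log2, relative to the array's 75th percentile). All 3 measures separated the groups with no overlap, and their part in the results was not tested. The brightest tested probe of each member was well above background on all 6 arrays. All 6 arrays lay on 1 slide and were scanned together, with the WT arrays in slide row 1 and the KO arrays in slide row 2, so slide row and genotype cannot be told apart. Xist, which female cells transcribe from their silenced X, was read from 1 probe, only by its flag for signal well above background. That flag was set on WT replicate 3 and KO replicate 1, although every sample is given as male. Results are therefore also given without those 2 arrays, called the Xist-positive arrays here. The knocked-out RNA is not named on the array, so the KO labels were not checked on it. Over all genes, limma's test with Benjamini-Hochberg adjustment called 12 of 15371 genes (0.0781%) and 17 of 28606 probes (0.0594%) at an adjusted p under 0.05. Of those 12 genes 10 were lower and 2 higher in KO, and none was a member.

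Probes of P4ha1 and P3h1 are shown as examples of genes whose 60-base probes, at different places in the genome, gave differences of unlike size. Plod1 was another such gene. For P4ha1 only the probe across an intron is printed. The letters are those in the array files, 5′ to 3′, and positions are those of mm9.

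P4ha1 probe across an intron, chr10:58802114-58805464, plus strand: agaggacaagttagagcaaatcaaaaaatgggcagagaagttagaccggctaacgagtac
P3h1 brighter probe, chr4:118917025-118917084, plus strand: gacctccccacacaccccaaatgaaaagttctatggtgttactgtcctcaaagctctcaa
P3h1 dimmer probe, chr4:118919748-118919807, plus strand: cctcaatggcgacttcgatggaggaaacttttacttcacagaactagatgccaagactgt

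The first of these skips an intron, since its 60 bases span 3351 bases of the genome. It therefore reads spliced RNA. The P3h1 probes each match an unbroken stretch of the genome.

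As a group, the members had lower means in KO than in WT. Because they were chosen with earlier results known, their counts are descriptions beside the shares of all genes. The KO mean lay below the WT mean for 10 of 10 members, against 44.2% of all genes tested. In bulk samples such as these, fewer cells of a type and less RNA per cell cannot be told apart. The median log2 difference, KO minus WT, was -0.37 (range -0.62 to -0.04), while the median over all genes was 0.02. At an unadjusted limma p under 0.05, 6 of 10 members were lower in KO (8.03% of all genes) and 0 were higher (6.94% of all genes). For 8 members every KO array lay below every WT array, a pattern shown by 10.4% of all genes, and for 0 members every KO array lay above every WT array, shown by 12% of all genes. No member passed the threshold after adjustment over all probes: limma's adjusted p ran from 0.0823 for P4ha2 to 0.927 for P4ha3. The count of 6 was 2 without WT replicate 2 (P4ha2 and Crtap) and 3 without the 2 Xist-positive arrays (P4ha1, P4ha2 and Crtap). Without those 2 arrays the log2 differences were -0.65 for P4ha1, -0.63 for P4ha2, -0.47 for Plod2, -0.42 for Serpinh1, -0.40 for Crtap, -0.40 for Fkbp10, -0.27 for Plod1, -0.23 for Plod3, -0.21 for P3h1 and 0.03 for P4ha3, so 9 of 10 members kept a lower KO mean.

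**Figure D1:**
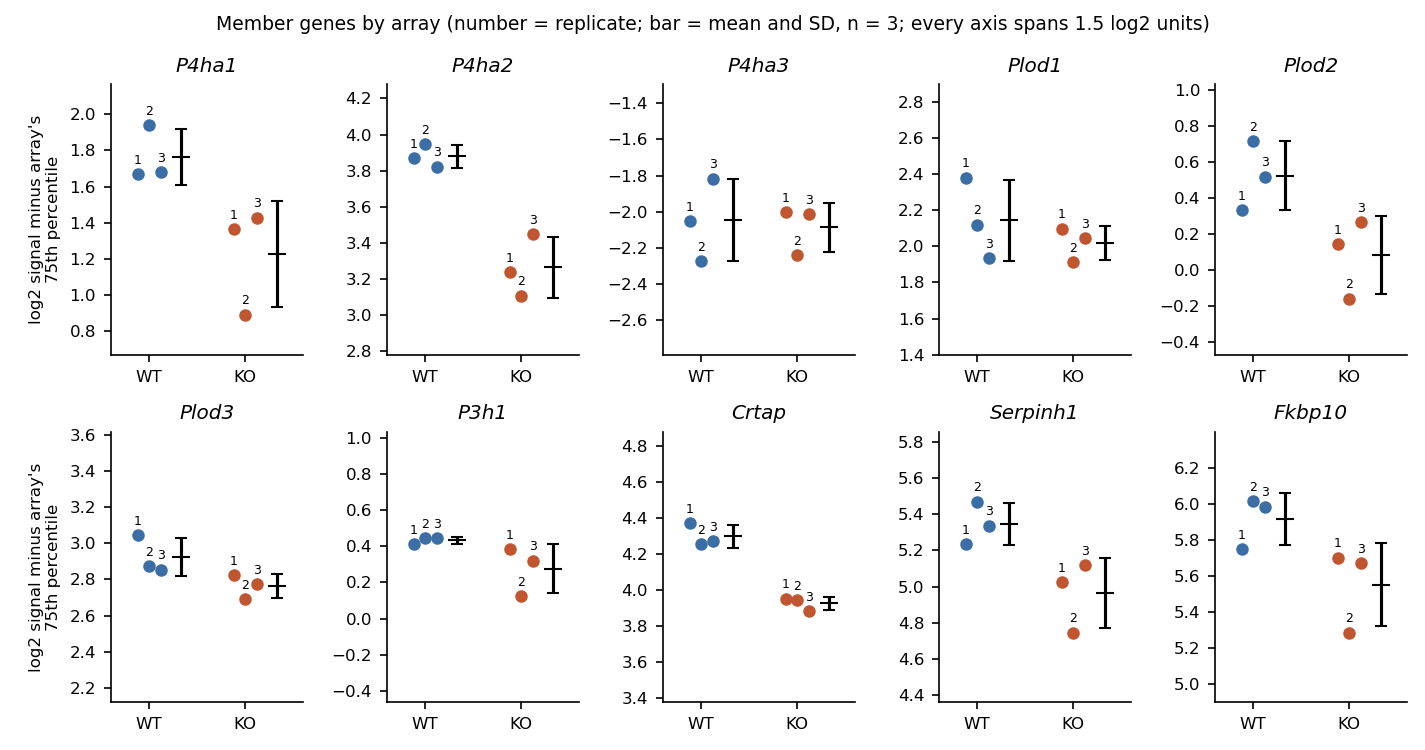
Each panel shows 1 member gene by its brightest tested probe, with log2 signal minus the array's 75th percentile on the vertical axis and the 3 WT (blue) and 3 KO (orange) arrays as points numbered by replicate; the bar is the mean and SD, and each axis spans 1.5 log2 units. The groups do not overlap for 8 genes and overlap for P4ha3 and Plod1.

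The prolyl 4-hydroxylase is a tetramer of catalytic alpha subunits, encoded by P4ha1, P4ha2 or P4ha3, with the beta subunit protein disulfide isomerase (P4hb). Both major alpha subunits had lower signals in KO, and P4ha3 did not show a difference beyond its spread. Levels are given in log2 units above or below the 75th percentile of their own array, and they can be set against each other between arrays for 1 probe but not between probes.

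P4ha2, read by a probe at chr11:53945032-53945091, measured 3.87, 3.95 and 3.82 on the WT arrays and 3.24, 3.11 and 3.45 on the KO arrays. Every KO array was below every WT array, and the gap between groups was wider than the range within either. The WT mean of 3.88 ± 0.06 and the KO mean of 3.26 ± 0.17 (SD over 3 arrays) gave a log2 difference of -0.62 (SE 0.10, 95% interval -0.87 to -0.37), or 1.53-fold lower, with adjusted p = 0.0823 by limma. The difference ran from -0.71 to -0.54 over all 17 settings tried, with an unadjusted p under 0.05 in each. A variance trend in the limma fit moved its adjusted p to 0.0405, past the threshold. A second P4ha2 probe exceeded background on 0 of 6 arrays and was not tested.

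P4ha1 was read by a probe at chr10:58834272-58834331 at 1.67, 1.94 and 1.68 in WT and at 1.36, 0.89 and 1.43 in KO. KO replicate 2 was the lowest array by more than the width of the WT range, and the groups did not overlap. KO minus WT was -0.54 (SE 0.16, 95% interval -0.92 to -0.15), 1.45-fold, with adjusted p = 0.205 by limma. An unadjusted p under 0.05 was reached in 16 of 17 settings, the exception being without WT replicate 2.

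The intron-spanning P4ha1 probe printed above measured -0.51, -0.44 and -0.82 in WT and -1.40, -1.36 and -1.43 in KO. On this probe the 3 KO arrays were nearly equal and KO replicate 2 did not stand apart. KO minus WT was -0.81 (SE 0.11, 95% interval -1.08 to -0.54), 1.75-fold, with adjusted p = 0.0645 by limma. It passed the threshold with a variance trend (adjusted p = 0.0382) and after normexp background correction with quantile normalization (a difference of -0.69, adjusted p = 0.0461). Both P4ha1 probes thus lay lower in KO, with no overlap between groups on either.

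P4ha3, the remaining alpha subunit, read at chr7:107467431-107467490, measured -2.05, -2.27 and -1.82 in WT and -2.00, -2.24 and -2.02 in KO. The groups overlapped throughout. The log2 difference was -0.04 (SE 0.14, 95% interval -0.36 to 0.29), adjusted p = 0.927 by limma, and its sign turned without WT replicate 3 (0.08), without KO replicate 2 (0.04) and without the 2 Xist-positive arrays (0.03). Its second probe was well above background on 2 WT arrays and 0 KO arrays and was not tested.

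The lysyl hydroxylases act at different parts of the chain. Plod1 modifies helical lysines, Plod2 those of the telopeptides, the short non-helical ends where cross-links form, and Plod3 adds glucosyl and galactosyl groups as well as hydroxyls. Plod2 had the largest difference of the 3, and those of Plod1 and Plod3 did not reach an unadjusted p of 0.05.

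Plod2 was read by a probe at chr9:92502483-92502542 at 0.33, 0.71 and 0.52 in WT and at 0.14, -0.16 and 0.26 in KO. WT replicate 2 was highest and KO replicate 2 lowest, with no overlap. That gave a log2 difference of -0.44 (SE 0.15, 95% interval -0.79 to -0.09), 1.35-fold, with adjusted p = 0.234 by limma. The unadjusted p was under 0.05 in 13 of 17 settings, but not without WT replicate 2, KO replicate 2 or the 2 Xist-positive arrays, nor with the replicate block. Another Plod2 probe was well above background on 3 WT and 0 KO arrays (measured means -3.73 and -4.06). It passed the filter through WT alone, so a lower KO value was built into its selection. Its KO signal is only a bound, at least 1.11-fold lower, and nothing is drawn from it.

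Plod3, at chr5:137472079-137472138, measured 3.05, 2.87 and 2.85 in WT and 2.82, 2.69 and 2.77 in KO. The KO arrays lay below the WT arrays by a margin narrower than the spread within either group. KO minus WT was -0.16 (SE 0.09, 95% interval -0.37 to 0.05), adjusted p = 0.436 by limma, and a second probe gave -0.24 (SE 0.11, adjusted p = 0.339).

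Plod1, at chr4:147284321-147284380, measured 2.38, 2.12 and 1.93 in WT and 2.10, 1.91 and 2.04 in KO, with overlap. Its log2 difference was -0.13 (SE 0.13, 95% interval -0.43 to 0.18), adjusted p = 0.697 by limma. Without WT replicate 1 it was -0.008, without KO replicate 2 -0.07, without WT replicate 3 -0.23 and without the 2 Xist-positive arrays -0.27. A second probe measured -2.76, -2.99 and -3.32 in WT and -2.74, -2.68 and -3.05 in KO. It gave 0.20 (SE 0.17, 95% interval -0.20 to 0.60, adjusted p = 0.622 by limma), so the probes of Plod1 differed in sign and neither differed beyond its spread. Leaving out WT replicate 1 moved this second value to 0.33, leaving out WT replicate 3 to 0.05, and leaving out the Xist-positive pair to 0.01. The mean of both probes was 0.04 higher in KO.

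**Figure D2:**
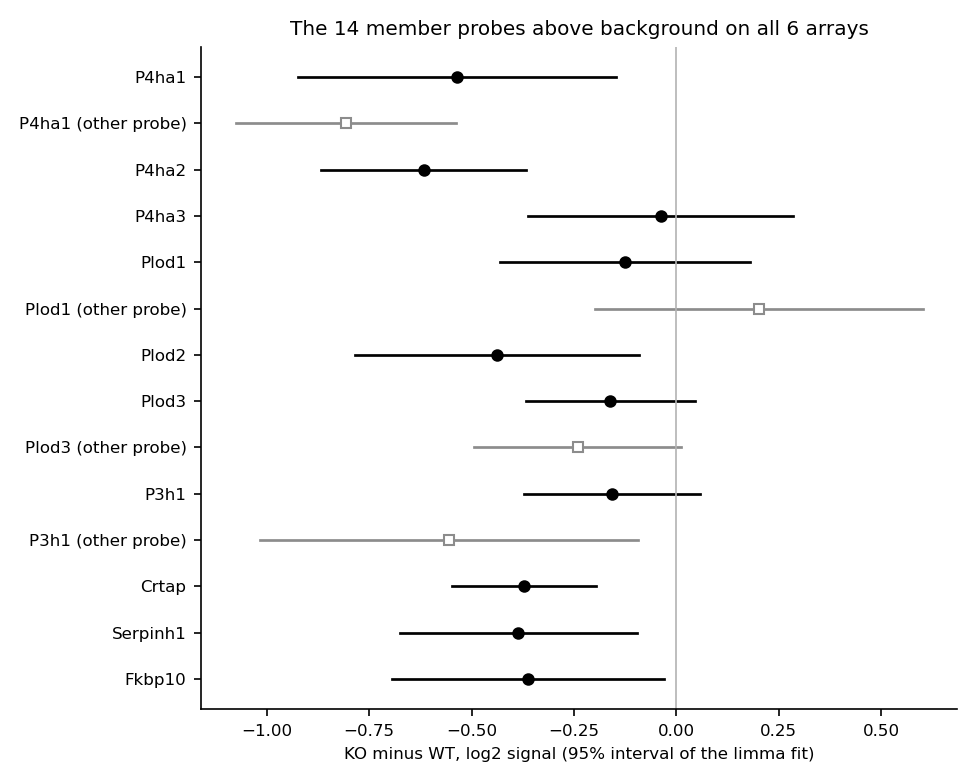
The horizontal axis gives KO minus WT in log2 signal for the 14 member probes well above background on all 6 arrays, with the 95% interval of the limma fit; filled circles are each gene's brightest tested probe and open squares another probe of the gene. The intervals of P4ha1 (both probes), P4ha2, Plod2, P3h1 (dimmer probe), Crtap, Serpinh1 and Fkbp10 lie below 0.

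The prolyl 3-hydroxylation complex joins P3h1, the enzyme, with Crtap, the cartilage-associated protein that holds it, and cyclophilin B (Ppib). Crtap had the smallest SE among the 10 brightest member probes. It was read at chr9:114284459-114284518 at 4.37, 4.25 and 4.27 in WT and at 3.95, 3.94 and 3.88 in KO. The lowest WT array was 0.30 above the highest KO array, which exceeded the range of either group. The WT mean of 4.30 ± 0.06 and the KO mean of 3.93 ± 0.04 (SD over 3 arrays) gave a log2 difference of -0.37 (SE 0.07, 95% interval -0.55 to -0.20), 1.29-fold, with adjusted p = 0.0968 by limma. It lay between -0.40 and -0.34 in all 17 settings, with an unadjusted p under 0.05 in each, and its adjusted p was 0.0441 with a variance trend.

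The brighter P3h1 probe measured 0.41, 0.45 and 0.44 in WT and 0.39, 0.13 and 0.32 in KO. The WT arrays were almost equal and KO replicate 1 was just under them. KO minus WT was -0.16 (SE 0.09, 95% interval -0.37 to 0.06), adjusted p = 0.464 by limma. It was -0.08 without KO replicate 2, and the mean of both P3h1 probes gave -0.36 (adjusted p = 0.257 by limma). The dimmer P3h1 probe, shown with it above, measured -0.87, -0.48 and -0.39 in WT and -0.84, -1.46 and -1.11 in KO, with WT replicate 1 inside the KO range. That probe gave -0.56 (SE 0.19, 95% interval -1.02 to -0.09), adjusted p = 0.251 by limma. Both P3h1 probes had lower KO means, with the larger difference on the dimmer one.

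Ppib, the remaining protein of the complex, differed by -0.07 (SE 0.10, adjusted p = 0.803 by limma), with overlapping groups whose means were 4.55 ± 0.11 (WT) and 4.48 ± 0.13 (KO; SD over 3 arrays). P4hb, the shared beta subunit of the prolyl 4-hydroxylases, differed by -0.24 (SE 0.09, adjusted p = 0.265 by limma), and its other probe gave -0.31. P3h4, which works with Plod1 on helical lysines, differed by -0.46 (SE 0.15, adjusted p = 0.227 by limma).

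Serpinh1, the collagen-specific chaperone, was read by a probe at chr7:106493971-106494030 on the minus strand, as the gene is. It measured 5.24, 5.47 and 5.34 in WT and 5.02, 4.75 and 5.12 in KO. All 3 KO arrays lay below all 3 WT arrays, with KO replicate 2 the lowest and WT replicate 2 the highest. The log2 difference was -0.39 (SE 0.12, 95% interval -0.67 to -0.10), 1.31-fold, with adjusted p = 0.215 by limma. Its unadjusted p was under 0.05 in 14 of 17 settings, but not without WT replicate 2 or the 2 Xist-positive arrays, nor with the mean of the probes under its name. A second probe filed under Serpinh1, at chr7:106494061-106494120, matches the plus strand, opposite to the gene. It was well above background on 3 WT and 2 KO arrays, so it too passed the filter through WT alone. Its measured difference was -0.48 (SE 0.34), with the sign turning to 0.03 without the 2 Xist-positive arrays.

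Fkbp10 was read at chr11:100286080-100286139 at 5.75, 6.01 and 5.98 in WT and at 5.70, 5.29 and 5.67 in KO. The gap between WT replicate 1 and KO replicate 1 was 0.05, so the groups were separate only narrowly. The log2 difference was -0.36 (SE 0.14, 95% interval -0.69 to -0.03), 1.29-fold, with adjusted p = 0.286 by limma. An unadjusted limma p under 0.05 was reached in 11 of 17 settings. It was not reached without KO replicate 2 (a difference of -0.23), WT replicate 2 (-0.31) or WT replicate 3 (-0.33), without the 2 Xist-positive arrays, with the replicate block or with no filter on dim probes.

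The members did not all follow the same array-to-array pattern. Over the 6 arrays Serpinh1 correlated with Plod2 at r = 0.993, with P4ha1 at 0.990, with Fkbp10 at 0.968 and with P4ha2 at 0.938. After the group means were taken out these values were 0.984, 0.971, 0.932 and 0.855. Crtap correlated with Serpinh1 at 0.724 over all arrays and at -0.67 after the group means were taken out, and P4ha3 at 0.199 over all arrays. These are descriptions over 6 arrays that share their scaling, and no p is given. In P4ha1, P4ha2, Plod2, P3h1, Serpinh1 and Fkbp10, KO replicate 2 was the lowest and WT replicate 2 the highest of the 6 arrays. KO replicate 2 was also the lowest in Plod1 and Plod3, but not in Crtap or P4ha3.

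**Figure D3:**
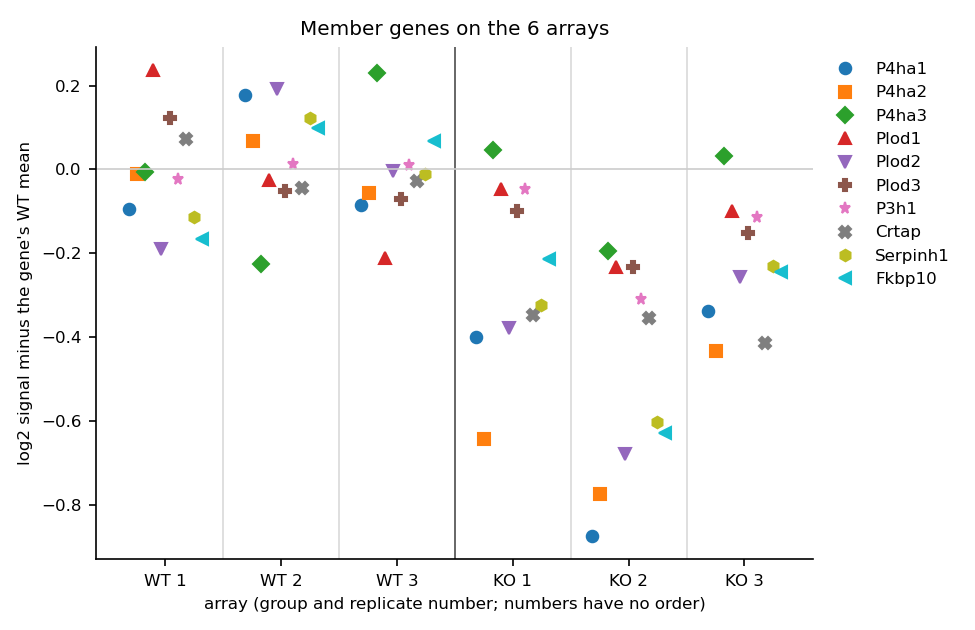
For each of the 6 arrays on the horizontal axis, points give each member's log2 signal minus that gene's WT mean on the vertical axis; markers stand for genes and replicate numbers have no order. KO replicate 2 holds the lowest values of all members but Crtap and P4ha3, and Crtap stays level across the 3 KO arrays.

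Of all other genes, the 5 with the profile most like that of Serpinh1 over the 6 arrays were Ckap4 (r = 0.998), AI256396 (0.996), Fkbp11 (0.995), Mical3 (0.995) and Ccn4 (0.995). Fkbp11 is a prolyl isomerase of the ER and Ckap4 a membrane protein of the ER. Their log2 differences were -0.31 for Ckap4, -0.97 for AI256396, -0.77 for Fkbp11, -0.48 for Mical3 and -0.76 for Ccn4, and limma's adjusted p for these 5 genes ran from 0.128 to 0.254. Likeness was taken over all 6 arrays with the group means left in, so lower KO values were built into the choice of these genes.

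Among 10 tested of 11 genes that work with the members or regulate collagen output, 8 had lower KO means and 6 were lower at an unadjusted limma p under 0.05, with 0 higher and a median of -0.30. Among all genes tested, 44.2% had lower KO means, 8.03% were lower and 6.94% higher at that p, and the median was 0.02. Without the 2 Xist-positive arrays the 6 partner genes were 4. The smallest p belonged to Creb3l1, the ER-bound transcription factor that drives collagen genes in osteoblasts, whose WT mean of 4.06 ± 0.09 and KO mean of 3.08 ± 0.30 (SD over 3 arrays) gave a difference of -0.98 (SE 0.16, adjusted p = 0.0749 by limma). P3h3, a relative of P3h1 that acts with P3h4, differed by -0.35 (SE 0.08, adjusted p = 0.123) and Fkbp14, an isomerase close to Fkbp10, by -0.44 (SE 0.13, adjusted p = 0.195). None passed the adjusted threshold.

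Genes for the steps after folding, and the collagens themselves, were counted next. Beside them, 44.2% of all genes tested had lower KO means. At an unadjusted limma p under 0.05, 8.03% of all genes were lower and 6.94% higher. Of 12 tested of 13 genes for export and propeptide removal, 10 had lower KO means, 7 were lower at an unadjusted limma p under 0.05 and 0 higher, with a median of -0.29. The count of 7 was 4 without WT replicate 1 and 4 without the 2 Xist-positive arrays. Adamts14, a procollagen N-proteinase, differed by -0.68 (SE 0.15, adjusted p = 0.124), Sec23a, a coat protein of export vesicles, by -0.39 (SE 0.10, adjusted p = 0.160) and Bmp1, the C-proteinase, by -0.56 (SE 0.16, adjusted p = 0.178). Of 10 tested of 11 fibrillar collagen genes, 8 had lower KO means, 7 were lower at an unadjusted limma p under 0.05 and 0 higher, with a median of -0.82. Of these 10 genes, 9 were well above background on all 6 arrays. The other, Col24a1 (-1.51), passed the filter through 1 group alone but counts among the lower genes above. Where all 6 arrays had to exceed background, 7 of 9 had lower KO means, 6 were lower at that p, and the median was -0.75. Col11a2 differed by -1.72 (SE 0.27, adjusted p = 0.0723), Col5a2 by -1.07 (SE 0.19, adjusted p = 0.0833) and Col11a1 by -1.42 (SE 0.26, adjusted p = 0.0887). No gene of either list passed the adjusted threshold in limma's fit.

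General ER chaperones, which fold proteins of all kinds, had differences on both sides of 0. Of 13 tested, 7 had lower and 6 higher KO means, 0 reached an unadjusted limma p under 0.05 in either direction, and the median was -0.00037, with a sign that turned between settings. The smallest p values belonged to Dnajb9 (-0.18, SE 0.10), Pdia3 (-0.18, SE 0.11) and Pdia4 (0.25, SE 0.16), with limma adjusted p from 0.452 to 0.508.

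P4ha1, P4ha2 and Plod2 are known targets of the hypoxia-inducible factor, so its other targets were counted as well. Of 20 tested, 8 had lower and 12 higher KO means, 2 were lower and 2 higher at an unadjusted limma p under 0.05, and the median was 0.05. These counts rested on single arrays: they were 1 lower and 4 higher without KO replicate 1, 1 lower and 0 higher without WT replicate 1 or WT replicate 3, 1 lower and 1 higher without WT replicate 2 or KO replicate 2, and 2 lower and 1 higher without KO replicate 3. Ndrg1 differed by -0.85 (SE 0.13, adjusted p = 0.0723 by limma), Pdk1 by 0.33 (SE 0.11, adjusted p = 0.240) and Higd1a by -0.22 (SE 0.09, adjusted p = 0.308). Among all genes tested, 44.2% had lower KO means and the median was 0.02. At an unadjusted limma p under 0.05, 8.03% of all genes were lower and 6.94% higher. The median was 0.05 for the hypoxia targets and -0.37 for the members. Whether the lists differ was not tested, nor was any part of the hypoxia-inducible factor in the members' differences.

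**Figure D4:**
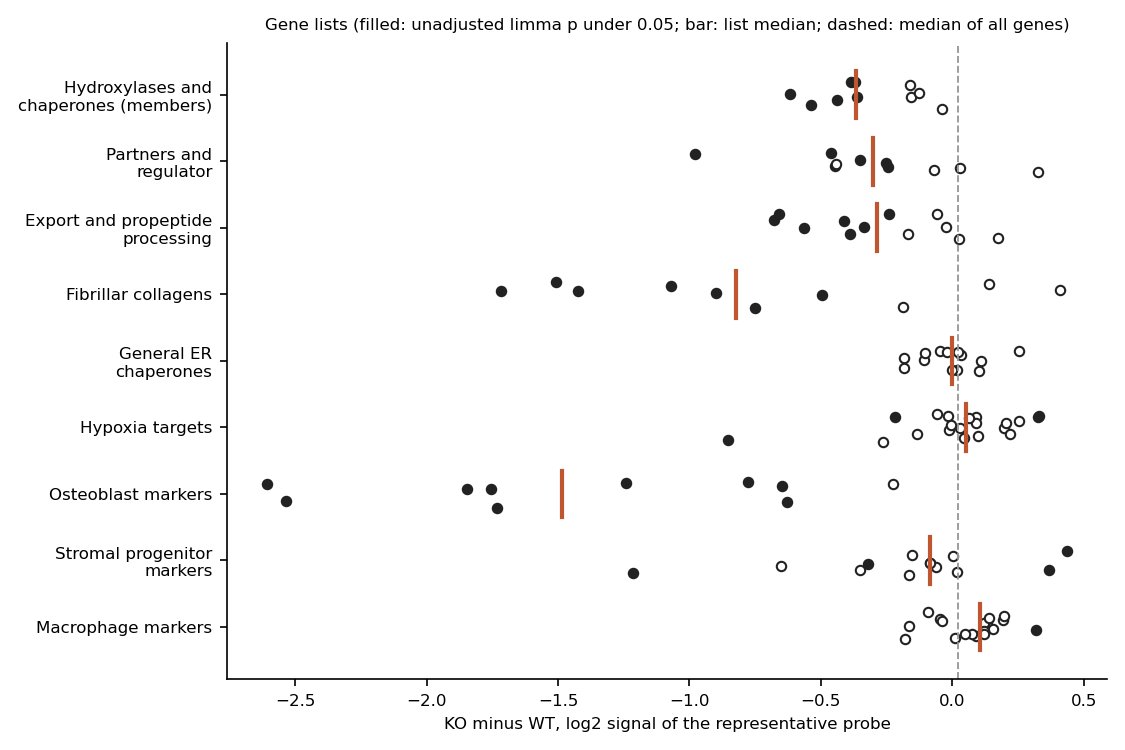
Each point is 1 tested gene by its brightest tested probe, with KO minus WT in log2 signal on the horizontal axis and 1 row per gene list; filled points have an unadjusted limma p under 0.05, the orange bar is the list's median and the dashed line the median of all genes. The medians are -0.37 for the hydroxylases and chaperones, -0.82 for fibrillar collagens, -1.49 for osteoblast markers and -0.00037 for general ER chaperones.

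The letters ACGTG form the core of the hypoxia response element. Promoters are shown of P4ha1 and P4ha2, the genes with the largest differences, and of Serpinh1, which the other profiles were set against, as 250 bases that end at the gene's start in the RefSeq table (GRCm38.p6), 5′ to 3′ on the gene's strand. Capitals mark ACGTG or, on the other strand, CACGT.

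P4ha1, chr10:59323046-59323295, plus strand: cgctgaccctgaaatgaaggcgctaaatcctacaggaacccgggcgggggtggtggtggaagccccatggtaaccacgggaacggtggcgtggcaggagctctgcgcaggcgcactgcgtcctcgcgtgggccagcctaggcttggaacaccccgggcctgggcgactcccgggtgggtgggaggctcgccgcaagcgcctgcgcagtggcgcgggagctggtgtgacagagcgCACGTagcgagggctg
P4ha2, chr11:54100674-54100923, plus strand: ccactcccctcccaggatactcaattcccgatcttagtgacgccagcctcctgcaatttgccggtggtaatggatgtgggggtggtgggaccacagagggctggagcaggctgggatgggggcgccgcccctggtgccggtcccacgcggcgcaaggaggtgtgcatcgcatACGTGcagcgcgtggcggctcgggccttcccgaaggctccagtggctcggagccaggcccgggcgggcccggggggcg
Serpinh1, chr7:99353240-99353489, minus strand: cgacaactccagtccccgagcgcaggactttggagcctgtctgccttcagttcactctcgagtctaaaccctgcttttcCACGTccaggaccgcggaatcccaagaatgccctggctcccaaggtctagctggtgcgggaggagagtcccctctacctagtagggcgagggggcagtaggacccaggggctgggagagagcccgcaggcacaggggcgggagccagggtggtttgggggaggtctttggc

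The match begins 16 bases before the start in P4ha1, 78 in P4ha2 and 171 in Serpinh1. The table held 9 promoters of 8 of the 10 members, and none of Plod2 or Fkbp10. Windows with ACGTG on either strand belonged to 5 of those 8 genes (P4ha1, P4ha2, Plod3, Serpinh1 and the second start of P3h1), or 5 of 9 windows, against 16.6% of 32851 promoter windows of the same length. Crtap, P4ha3, Plod1 and the first start of P3h1 had no ACGTG on either strand in the window, and other forms of the core were not counted. This describes the windows only, and binding was not measured.

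Markers of cell types that the cultures could hold were counted beside the members. The shares over all genes tested were 44.2% with lower KO means and 8.03% lower at an unadjusted limma p under 0.05. The osteoblast list had the lowest median, with 10 of 10 markers lower in KO, 9 at an unadjusted limma p under 0.05, 1 past the adjusted threshold (Ibsp, a bone matrix protein, at -1.73, adjusted p = 0.0496) and a median of -1.49. Ibsp was not called with the Xist term, with the replicate block, with no filter on dim probes or without WT replicate 2, where 0 genes were called. Over all settings the osteoblast median ran from -1.62 to -1.13, with 8 to 10 markers lower at an unadjusted limma p under 0.05. The summed level of this list (log2 of the sum of the markers' scaled signals) was 6.56 to 6.93 on the WT arrays and 5.24 to 5.65 on the KO arrays. The summed level of the members was 7.19 to 7.34 in WT and 6.70 to 6.996 in KO. Osteoblasts make most of the collagen of bone, and the part of the osteoblast difference in that of the members was not tested.

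The sorting gate left out CD45 and CD11b, yet all 18 macrophage markers were well above background on all 6 arrays, including Ptprc (CD45) and Itgam (CD11b). Their summed level was 10.26 to 10.32 in WT and 10.34 to 10.43 in KO. Of the 18, 13 had higher KO means, and the median was 0.11. At an unadjusted limma p under 0.05, 1 was higher (6.94% of all genes) and 0 lower (8.03% of all genes). With a gene's probes averaged, 8 of 18 had lower KO means, 2 were higher at that p, and the median was 0.02. Of 13 stromal progenitor markers, 9 had lower KO means, with 2 lower and 2 higher at that p and a median of -0.09. Without WT replicate 1 the median was 0.01, with 6 lower KO means and 1 lower and 1 higher at that p, and without WT replicate 3 it was -0.18, without WT replicate 2 -0.16, and without KO replicate 2 -0.01. Ly6a (Sca-1) and Itgb1 (CD29), which the gate selected, overlapped between groups. Of 6 tested of 7 adipocyte markers, 4 were higher in KO at that p and 0 lower, with a median of 0.33 and a summed level of 6.42 to 6.53 in WT and 6.79 to 7.14 in KO. The count of 4 was 2 without WT replicate 2 and 2 without KO replicate 1. Of 3 tested chondrocyte markers 1 was lower at that p, and of 4 tested endothelial markers none was. The part of these cell types in the members' differences was not tested.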

How the data were processed

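RNA of 3 WT and 3 KO samples was hybridised to 1 Agilent array each. Groups and replicate numbers come from the sample titles. The description fields and extraction protocol speak of human blood instead, and the titles, source names and organism field were followed. Per the file headers, each spot's intensity is the processed signal of the scanner software, corrected for background there (Agilent Feature Extraction 10.7.1.1, while the submitters' processing notes name 9.1). Probe positions refer to mm9. The log2 values of the deposited series table have columns that share 1 distribution (sorted values within 0.002776 of each other, median 6.15) and correlate with their own arrays at r of at least 0.9999. It was used as an alternative, and further steps behind it are not given in the sources used here.

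From the processed signals, log2 values minus each array's 75th percentile over non-control spots were computed, without 49 to 131 outlier spots per array. Tests were run on probes with at least 2 values per group that 1 group or both had well above background throughout. This left 28606 probes, and those among them with a gene name stood for 15371 genes. Among a gene's tested probes the brightest over the 6 arrays stood for it, and a bright probe can also bind other RNA. KO was compared with WT in limma 3.58.1 under R 4.3.3 (lmFit and eBayes, two-sided, group only), with Benjamini-Hochberg adjustment over all probes tested and a threshold of 0.05. Where 0 arrays of a group exceeded background, the fold is a bound, against the higher of the probe's own signal and the lowest signal well above background on each array. Names came from the RefSeq table (GRCm38.p6) for 32994 of 56605 probes through the accession, for 10224 through the symbol and for 520 through a synonym. The file's name was kept for 2574, and 10293 had none. The fit was tested on simulated data. The number of arrays limits the precision.

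The members and all lists were chosen with earlier results of these data known. All members and their probes are named, together with up to 3 genes with the smallest p per pathway list, the partners P4hb, Ppib and P3h4, and the 5 genes most like Serpinh1. Genes of the sort gate and Ibsp were named after their values were seen. Alternatives were median centring, normexp with quantile normalization, the deposited table, other filters on dim probes, a variance trend, a replicate block, a term for Xist signal, the mean of a gene's probes, and each array or the pair with Xist signal left out.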

Additional observations from a re-analysis of the deposited data

How the results depend on the processing

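Of all genes, 12 were called by limma. The count was 62 with median centring, 142 with normexp and quantile normalization, 6 where all 6 arrays had to exceed background, 153 with a variance trend, 28 with probes averaged per gene, and 0 to 16 with each array left out (1 without WT replicate 1 and 0 without WT replicate 2, where an unadjusted p under 0.05 took in 1066 lower and 737 higher genes). It was 0 with no filter on dim probes (unadjusted, 1208 lower and 6602 higher), 0 with the Xist term (1296 and 1112) and 0 with the replicate block (1282 and 1072). Of the 10 members, 4 were lower at an unadjusted p under 0.05 with the replicate block. Replicate numbers also mark slide columns. After group means were taken out, same-numbered arrays correlated at r = 0.0556, 0.154 and -0.0319, and differently numbered ones at -0.24 to 0.18. With 3 arrays per group these values cannot decide whether the numbers pair the samples. A slide or scan block was not run because all arrays share 1 slide and 1 scan.

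The count of 6 members lower was 3 without the arrays with Xist signal and 2 to 6 with each array left out, and the members' median stayed between -0.40 and -0.25. The median of the export list was -0.36 with probes averaged per gene. That of the general ER chaperones turned to 0.019 with that average and ran from -0.038 to 0.045 with each array left out. P4ha3 was 0.035 without the arrays with Xist signal and ran from -0.15 to 0.077 with each array left out, Plod1 was 0.038 with the mean of its probes, and the Serpinh1 probe on the opposite strand was 0.026 without the arrays with Xist signal. Every other tested member probe kept their sign in every setting tried.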

Other observations

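Probes of 1 collagen gene did not always give differences of like size. For Col1a1 the brightest tested probe gave a log2 difference, KO minus WT, of -0.90, while its other 2 tested probes gave -0.21 and -0.14. For Col5a2 the values were -1.07 and -0.45. Sparc, a secreted collagen-binding protein, differed by 0.03 on its brightest tested probe and by -0.70 on its other one. Adamts2, a procollagen N-proteinase, was lower on all 3 tested probes (-0.34 on the brightest, -0.58 and -0.84 on the others). These genes were chosen after their values were seen.

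Col3a1 and Col2a1 were the fibrillar collagens with higher KO means, at 0.14 (SE 0.47) and 0.41 (SE 0.35), and WT and KO arrays overlapped for both (adjusted p = 0.922 and 0.632 by limma). The 3 WT arrays of Col3a1 alone spread with an SD of 0.72.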
